A study of Mus musculus with 9 samples.

Results

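The genes described here are 40 mouse genes of ribosome production. Of these, 39 encode proteins that make or assemble ribosomes in the nucleolus, and the other is Myc, the gene of a transcription factor known to act on many of them. They were taken by symbol from a list, out of 21951 genes in the count table. All 40 were found, and all 40 passed the filter on low counts that left 11295 genes for testing. Counts of messenger RNA came from BV2, an immortalised line of mouse microglia given as wild-type. That term does not cover what was used to immortalise the line, which was not examined. One group was given 5α-androst-3β,5α,6β-triol, a man-made steroid (triol below), at 10 µM for 30 min and then a single X-ray dose of 10 Gy. A second group had vehicle, 20% HP-β-CD (a cyclodextrin), for 30 min before the same dose. Control cells had that vehicle, and their labels name no radiation. No vehicle is named for triol-treated cells, so triol and the lack of cyclodextrin cannot be told apart if they had none. Each group held 3 libraries, and neither the interval between dose and RNA nor triol alone is covered by the labels. In triol replicates 2 and 3, the treatment field gives another position for the last hydroxyl than the title does, so the titles were followed.

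Ribosomes are assembled in the nucleolus, where RNA polymerase I transcribes one long precursor of ribosomal RNA. Small nucleolar ribonucleoproteins (snoRNPs) modify that precursor, and ordered sets of assembly factors cleave and fold it into the small and the large subunit. The nucleolus is also a known sensor of stress, and ribosome production is known to follow cell growth.

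The promoters shown are those of the member with the largest rise after irradiation in each of 6 role groups, picked by the values below. Each line gives the 250 bases before the transcription start, 5′ to 3′ on the gene's own strand, from RefSeq on GRCm38.p6, while gene coordinates further on are those of GENCODE M21 on GRCm38. Capitals mark CACGTG, the E-box that MYC binds with its partner MAX, and CCGGAAG or its reverse complement, the core bound by ETS factors. The windows are Nolc1 at chr19:46075597-46075846 on the plus strand, Pwp2 at chr10:78185150-78185399 on the minus strand, Ncl at chr1:86359456-86359705 on the minus strand, Rrp9 at chr9:106477059-106477308 on the plus strand, Polr1e at chr4:45018359-45018608 on the plus strand, and Nop2 at chr6:125131633-125131882 on the plus strand.
Nolc1: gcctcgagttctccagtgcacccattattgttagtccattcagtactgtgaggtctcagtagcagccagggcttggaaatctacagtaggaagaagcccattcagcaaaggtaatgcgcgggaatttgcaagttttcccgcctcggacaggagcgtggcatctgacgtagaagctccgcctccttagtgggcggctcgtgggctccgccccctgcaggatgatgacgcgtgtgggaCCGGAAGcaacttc
Pwp2: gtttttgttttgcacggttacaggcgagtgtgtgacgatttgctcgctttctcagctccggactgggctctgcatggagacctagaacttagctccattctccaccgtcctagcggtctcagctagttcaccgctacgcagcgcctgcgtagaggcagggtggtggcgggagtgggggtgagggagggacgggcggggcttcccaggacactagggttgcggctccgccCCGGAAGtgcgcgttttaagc
Ncl: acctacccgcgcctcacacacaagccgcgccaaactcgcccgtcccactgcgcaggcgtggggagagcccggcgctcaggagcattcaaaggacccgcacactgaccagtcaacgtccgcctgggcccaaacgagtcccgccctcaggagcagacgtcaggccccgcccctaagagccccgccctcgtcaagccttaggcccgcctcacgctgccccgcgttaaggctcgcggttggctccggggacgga
Rrp9: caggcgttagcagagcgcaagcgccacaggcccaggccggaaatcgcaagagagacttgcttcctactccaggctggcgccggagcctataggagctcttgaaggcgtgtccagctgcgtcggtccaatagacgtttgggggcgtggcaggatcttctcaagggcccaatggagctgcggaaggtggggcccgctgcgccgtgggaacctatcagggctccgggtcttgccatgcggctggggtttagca
Polr1e: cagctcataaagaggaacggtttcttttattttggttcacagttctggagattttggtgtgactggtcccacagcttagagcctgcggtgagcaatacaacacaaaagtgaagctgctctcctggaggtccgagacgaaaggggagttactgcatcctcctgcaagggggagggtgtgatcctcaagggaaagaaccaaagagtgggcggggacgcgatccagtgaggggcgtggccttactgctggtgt
Nop2: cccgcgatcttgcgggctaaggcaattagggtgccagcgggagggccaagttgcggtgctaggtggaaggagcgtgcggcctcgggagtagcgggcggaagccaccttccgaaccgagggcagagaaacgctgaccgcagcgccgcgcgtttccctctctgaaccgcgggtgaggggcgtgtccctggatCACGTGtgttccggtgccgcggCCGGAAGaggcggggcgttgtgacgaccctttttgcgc
Nolc1 and Pwp2 carry the ETS core 14 and 21 bases before the start, counted to its first base. Nop2 carries an E-box at 60 bases and the ETS core at 38 bases before the start. RefSeq windows of 300 bases, 250 before and 50 after the start, were found for 33 of the 40 members. Both strands were searched, and a gene with several starts counted once if any window held the letters. CACGTG lay in 6 of the 33 (18.2%), against 11.9% of 8977 tested genes with a window and 8.09% of all 27025 genes with one. CCGGAAG lay in 11 (33.3%), against 21.5% of tested genes. GGGCGG, the GC box, lay in 25 (75.8%), against 69.0% of tested genes, and TATAAA, the TATA box, in 2 (6.06%), against 8.58%. CCAAT lay in 13 (39.4%), against 43.4% of tested genes. Members with CACGTG had a median log2 change of 0.20 in irradiated against control cells, and those without it 0.33. The medians with and without were 0.30 and 0.33 for CCGGAAG, and 0.33 and 0.24 for GGGCGG. For CCAAT they were 0.29 and 0.34, and for TATAAA 0.20 and 0.33. A link of these letters to the rise was not tested. These are counts of letters and not of bound sites.

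Libraries held 17230866 to 18944051 counts in triol-treated, 13879062 to 15192203 in irradiated and 14118475 to 17705424 in control cells. Values below are CPM, counts scaled to a common library total with TMM, and fold changes, standard errors (SE), 95% intervals and adjusted p-values come from the quasi-likelihood test of edgeR over all 11295 genes. A gene is called when its adjusted p is under 0.05. The labels do not say that replicates were separate cultures, so the p-values measure only how far these libraries spread, and that spread may be technical. Nor do the values show RNA per cell, and in bulk RNA fewer cells of a type and less RNA per cell cannot be told apart. Of 12 microglial markers all were tested, but Tmem119 and P2ry12 had only 22 to 26 and 9 to 13 reads in triol-treated, 16 to 25 and 6 to 13 in irradiated, and 16 to 18 and 8 to 14 in control libraries. In irradiated against control cells 9 of the 12 fell, where 22.2% of all tested genes fell. The summed level of the 12 was 2190 to 2243 RPM (the same scale without TMM) in triol-treated, 2169 to 2255 in irradiated and 2787 to 2955 in control libraries. Summed levels of 7 neuronal markers were 2.63 to 3.25 RPM in triol-treated, 1.51 to 2.28 in irradiated and 0.129 to 0.734 in control libraries, and Tubb3 made up 68.7% of the sum. The 20 hepatocyte genes summed to 37.8 to 41.2, 31.9 to 35.2 and 26.9 to 31.3 RPM in the same order of groups. Of the 6 that were tested, Alb, Serpina1e and Serpina3k rose with triol against irradiation alone. Their reads were few, at 61 to 82, 14 to 24 and 19 to 37 per triol-treated library. Irradiated libraries held 2 to 24, 0 to 2 and 0 to 1 reads of them. Control libraries held 4 to 11, 0 to 1 and 0 to 6. They were 3 of the 11 genes called higher over all tested genes in triol-treated against irradiated cells. The 7 astrocyte markers summed to 1.68 to 2.59, 2.04 to 2.49 and 0.450 to 0.992 RPM with Aqp4 at 0 in all libraries, the 6 fibroblast markers to 1.103 to 2.11, 0.527 to 0.760 and 0 to 0.113, and the 7 oligodendrocyte genes to 38.9 to 43.8, 38.4 to 45.6 and 34.1 to 40.9, with Olig1 and Olig2 at 0. The part of these lists in the results below was not tested.

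Irradiation was followed by higher transcript levels of nearly the whole list and a lower level of Myc. In irradiated against control cells 36 of the 40 members rose, 1 fell and 3 did not pass, where 44.3% of all tested genes were called, 22.1% higher and 22.2% lower. Rises and falls of single members below are for irradiated against control cells unless another comparison is named. They were small, with a median log2 fold change of 0.29 over the 40 members against 0.01 over all tested genes, and the largest was 0.47. Among 2071 other tested genes with a mean level within the members' interquartile range, 77.7 to 177 CPM, 23.2% rose. The groups did not overlap, with the irradiated ones higher, for 36 members, and 25.2% of all tested genes were so. These were not the same 36 that were called higher. Utp18 was called but its groups overlapped, and those of Rrp1 lay apart but it was not called. They lay wholly lower for Myc and for 25.5% of tested genes. Against a minimum fold of 1.2, 11 members still passed upward, where 5.96% of tested genes did, and Myc passed downward. Together the 40 genes took 0.990 ± 0.00439% of the counts in triol-treated, 1.03 ± 0.0207% in irradiated and 0.811 ± 0.0250% in control libraries (SD, n = 3 each).

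**Figure D1:**
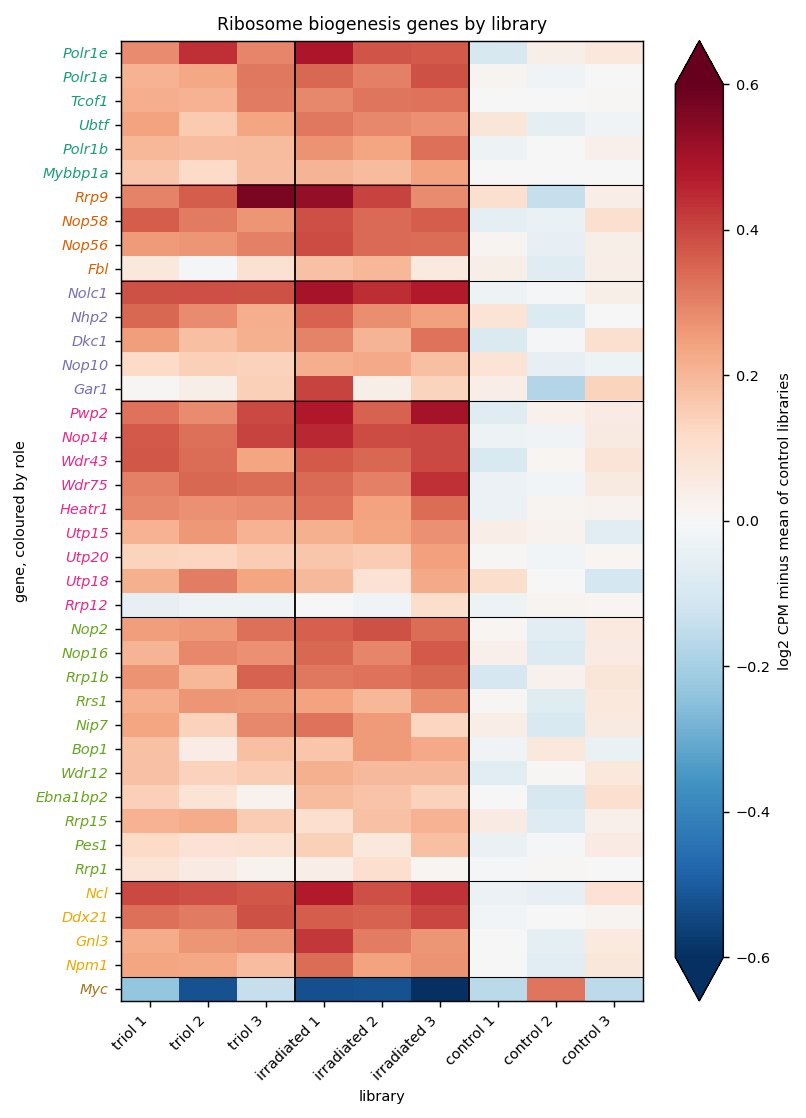
Level of each member in each library as log2 CPM minus the mean of the 3 control libraries, with genes in rows by role and triol-treated, irradiated and control libraries from left to right. Almost every row is red in the 6 irradiated libraries, with or without triol, while Myc at the bottom is blue there and Rrp12 and Rrp1 stay near the control level.

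All 6 genes of RNA polymerase I transcription rose, with a median of 0.30. Polr1a encodes the largest subunit of the polymerase and lies on chromosome 6 from 71909053 to 71984935. It had 175, 178 and 189 CPM in triol-treated, 192, 187 and 197 CPM in irradiated and 153, 149.6 and 152 CPM in control libraries. Both irradiated groups lay wholly above the control libraries, and irradiated against control cells differed by 0.34 on the log2 scale (SE 0.04, edgeR adjusted p = 3.0e-10). Polr1e, which encodes a subunit of the polymerase's initiation and elongation subcomplex, had the largest rise of the group. Its values were 13.2, 14.8 and 13.3 CPM in triol-treated, 15.2, 14.1 and 14.1 CPM in irradiated and 10.1, 11.1 and 11.3 CPM in control libraries, a log2 change of 0.41 (SE 0.10, edgeR adjusted p = 7.9e-04). Every irradiated library, with or without triol, was above every control library. Ubtf encodes UBF, the architectural factor that binds ribosomal DNA. It had 179.8, 169.5 and 179 CPM in triol-treated, 189, 186 and 183 CPM in irradiated and 159.9, 146 and 149.8 CPM in control libraries, and rose by 0.29 (SE 0.04, edgeR adjusted p = 2.2e-08). Its triol-treated libraries all lay between the other groups. Tcof1, whose product treacle couples polymerase I to precursor processing, rose by 0.31, the second-largest subunit gene Polr1b by 0.28, and Mybbp1a, which encodes a MYB-binding nucleolar protein, by 0.21.

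The 4 genes of box C/D snoRNPs, which place methyl groups on ribosomal RNA, also rose. Fbl, which encodes the methyltransferase fibrillarin, had the smallest rise of them. It had 96.6, 91.6 and 98.4 CPM in triol-treated, 104, 106 and 96.2 CPM in irradiated and 94.6, 87.7 and 94.99 CPM in control libraries, a log2 change of 0.15 (SE 0.05, edgeR adjusted p = 0.0088). Irradiated replicate 3, with 96.2 CPM, was only just above the highest control library. Leaving out control replicate 2 or irradiated replicate 2 ended the call for Fbl, with values between 0.11 and 0.19 over all alternatives and adjusted p up to 0.10. The core scaffold genes Nop58 and Nop56 rose by 0.36 and 0.36 (SE 0.04 and 0.03). Rrp9, which encodes a protein of the snoRNP that guides the early cleavages, rose by 0.41 (SE 0.08, edgeR adjusted p = 3.4e-05), with 31.9, 33.3 and 38.4 CPM in triol-treated, 37.5, 34.3 and 31.6 CPM in irradiated and 27.7, 23.5 and 26.6 CPM in control libraries. The control libraries were the lowest here too, while triol-treated and irradiated ones overlapped.

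Of the box H/ACA group, whose snoRNPs convert uridine to pseudouridine, 4 of 5 rose. Nolc1 encodes Nopp140, a phosphoprotein that chaperones snoRNPs, lies on chromosome 19 from 46075863 to 46085530 and had the largest rise of all members. It had 389, 391 and 389.6 CPM in triol-treated, 421, 407 and 416 CPM in irradiated and 293, 298 and 307 CPM in control libraries. The 3 groups did not overlap, and the change in irradiated against control cells was 0.47 (SE 0.03, edgeR adjusted p = 1.7e-16), or 38.6% more. Dkc1, which encodes the pseudouridine synthase dyskerin and lies on chromosome X, had 149, 142 and 145 CPM in triol-treated, 154, 144 and 157 CPM in irradiated and 118, 124 and 133 CPM in control libraries (log2 0.27, SE 0.04, edgeR adjusted p = 9.5e-07). Its core partners Nhp2 and Nop10 rose by 0.30 and 0.21. The fourth core gene, Gar1, did not pass, with 16.0, 16.3 and 17.6 CPM in triol-treated, 21.2, 16.3 and 17.5 CPM in irradiated and 16.4, 14.1 and 17.5 CPM in control libraries. Its log2 difference was 0.20 (95% interval 0.01 to 0.40, edgeR adjusted p = 0.084), and 4 of 17 alternatives called it, with adjusted p from 0.033 to 0.55. Gar1 was also one of the less abundant members, with 227 to 336 reads per library.

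**Figure D2:**
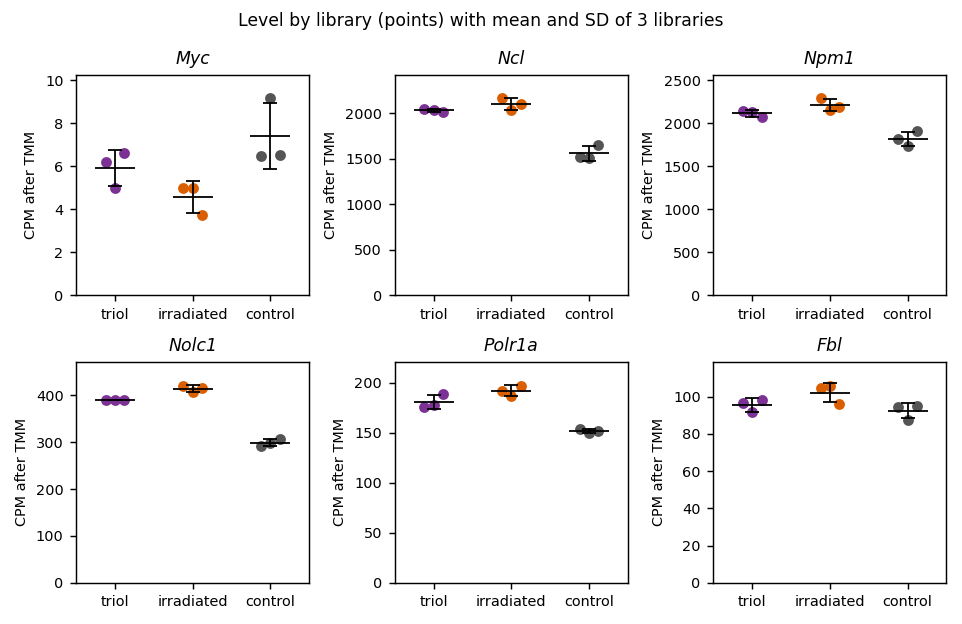
CPM after TMM in each library (points) with the mean and SD of 3 libraries (bars) for Myc, Ncl, Npm1, Nolc1, Polr1a and Fbl, with axes starting at 0. Irradiated libraries with and without triol lie above the control libraries for Ncl, Npm1, Nolc1 and Polr1a, the triol-treated ones overlap the control ones for Fbl, and Myc is lowest in the irradiated libraries without triol.

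In the small subunit group 8 of 9 genes rose. Most encode parts of the small subunit processome, the large particle that forms on the new precursor. Pwp2, which encodes a scaffold protein of its core and lies on chromosome 10 from 78170909 to 78185149, rose most, by 0.45 (SE 0.05, edgeR adjusted p = 3.1e-09). It had 68.6, 66.6 and 72.0 CPM in triol-treated, 76.4, 69.9 and 77.4 CPM in irradiated and 52.0, 55.6 and 56.6 CPM in control libraries, again with both irradiated groups clear of the control ones. Nop14 rose by 0.41, and Wdr43, Wdr75, Heatr1 and Utp15, whose products belong to the subcomplex that joins transcription to processing, rose by 0.37, 0.36, 0.30 and 0.24. Utp20 rose by 0.19. Utp18 rose by 0.17 (edgeR adjusted p = 0.011), a call that was lost without control replicate 3 or irradiated replicate 3, with adjusted p up to 0.11. Rrp12, which encodes a factor for maturation and export of both subunits, did not pass, with 75.4, 76.3 and 76.3 CPM in triol-treated, 78.2, 76.8 and 83.8 CPM in irradiated and 76.4, 78.9 and 78.7 CPM in control libraries (log2 0.03, 95% interval −0.06 to 0.12, edgeR adjusted p = 0.64). That interval ends below the 0.29 median of the list.

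Of 11 genes for the large subunit 10 rose, with a median of 0.21. Nop2 encodes a methyltransferase of the large-subunit ribosomal RNA, lies on chromosome 6 from 125131909 to 125144753 and rose most. It had 131, 132 and 139 CPM in triol-treated, 142, 144 and 139 CPM in irradiated and 111, 106 and 115 CPM in control libraries (log2 0.36, SE 0.04, edgeR adjusted p = 1.1e-09). The 3 groups did not overlap, with the control libraries lowest and the irradiated ones highest. The PeBoW complex, needed to process the large-subunit precursor, is encoded by Pes1, Bop1 and Wdr12. These rose by 0.13, 0.21 and 0.20 (SE 0.04, 0.05 and 0.04). Nop16 rose by 0.34, Rrp1b by 0.33, Rrs1, which acts with the ribonucleoprotein of the smallest ribosomal RNA, by 0.24, Nip7 by 0.24 and Ebna1bp2 by 0.17. The call for Ebna1bp2 was lost without control replicate 2, with an adjusted p of 0.073. Rrp15 rose by 0.16 with an edgeR adjusted p of 0.044, and it was not called by DESeq2, without the filter, with the replicate block, in 7 of the 9 runs without 1 library, or against a fold of 1.2, with adjusted p up to 0.22 apart from the last. Rrp1, a paralog of Rrp1b, did not pass. It had 168, 164 and 161 CPM in triol-treated, 163, 170.0 and 159.6 CPM in irradiated and 157, 159 and 159 CPM in control libraries, a log2 difference of 0.05 (95% interval −0.02 to 0.13, edgeR adjusted p = 0.27).

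Transcripts of the 4 genes grouped here as encoding abundant nucleolar proteins rose too. Npm1 encodes nucleophosmin, the histone and ribosome chaperone of the outer nucleolus, and lies on chromosome 11 from 33152287 to 33163206. It had 2144, 2135 and 2069 CPM in triol-treated, 2292, 2150.1 and 2194 CPM in irradiated and 1818, 1738 and 1906 CPM in control libraries, a log2 change of 0.28 (SE 0.03, edgeR adjusted p = 3.0e-10). Npm1 has many processed copies in mammalian genomes, so its count may be affected by shared reads. Ncl encodes nucleolin, an RNA-binding protein of the same abundance class, and lies on chromosome 1 from 86344719 to 86359400. It had 2050.3, 2037 and 2016 CPM in triol-treated, 2167, 2039.8 and 2103 CPM in irradiated and 1520.1, 1506 and 1654 CPM in control libraries, or 34.8% more in irradiated than in control cells (log2 0.43, SE 0.03, edgeR adjusted p = 2.1e-15). For both genes the control libraries were lowest, and for Ncl the triol-treated and irradiated ones overlapped. The helicase gene Ddx21 rose by 0.37 and Gnl3, which encodes the GTP-binding protein nucleostemin, by 0.33. Per kilobase of the principal transcript in GENCODE M21, Npm1 was highest of the 40 and Ncl second, at 1296 and 248 RPKM in triol-treated, 1355 and 256 RPKM in irradiated and 1115 and 190.2 RPKM in control cells. Both kept these ranks in control cells when the union of all exons was taken as the length. The gap between them rests largely on the transcript lengths taken, 1633 bases for Npm1 and 8202 for Ncl. Their mean levels in control cells were 1821 and 1560 CPM. Whether 8202 bases is the length of the Ncl transcript in these cells was not examined. Polr1e and Myc were the lowest by either length, with 4.62 and 4.35 RPKM in triol-treated, 4.85 and 3.35 RPKM in irradiated and 3.63 and 5.41 RPKM in control cells.

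Myc, read here only as the transcript of the mouse gene and not as MYC protein or activity, went the other way. It lies on chromosome 15 from 61985391 to 61990374 and had 6.18, 5.01 and 6.62 CPM in triol-treated, 4.99, 5.00 and 3.72 CPM in irradiated and 6.496, 9.16 and 6.52 CPM in control libraries. All 3 irradiated libraries were below all control libraries, and control replicate 2 stood above the other two. The log2 change in irradiated against control cells was −0.71 (SE 0.16, 95% interval −1.04 to −0.38, edgeR adjusted p = 4.1e-04), a fall of 38.9%. It was called under all 17 alternatives, with values from −0.80 to −0.51, and without control replicate 2 it was −0.51 (adjusted p = 0.020). Reads per library were 57 to 160, the fewest of any member, and its coefficients of variation, 14.02% in triol-treated, 16.0% in irradiated and 20.7% in control cells, were the highest of the 40 in each group, where the members' medians were 2.66%, 3.21% and 4.46%.

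**Figure D3:**
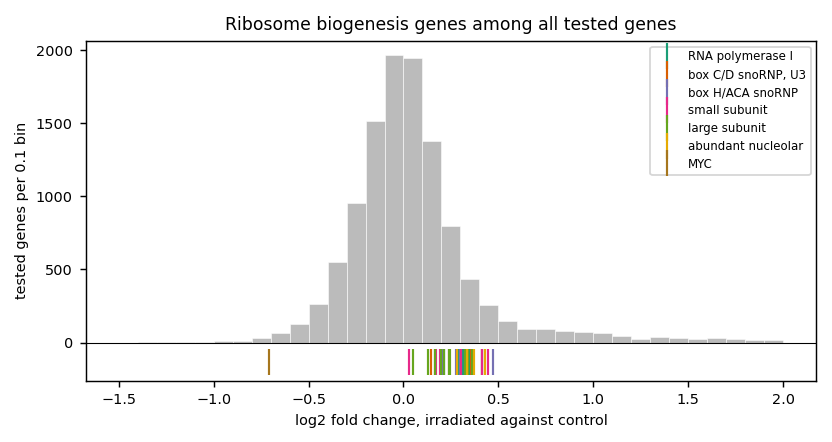
Number of tested genes (grey bars) per bin of 0.1 in log2 fold change, irradiated against control, between −1.5 and 2.0, with 1 tick below the axis for each member, coloured by role. The ticks other than that of Myc lie between 0.03 and 0.47, right of the centre of all genes, and the tick of Myc lies at −0.71.

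Triol before irradiation gave no called difference in these genes. In triol-treated against irradiated cells 0 of the 40 members passed in edgeR, where 0.106% of all tested genes did, 0.0974% higher and 0.00885% lower, and where 0.0483% of the 2071 genes of like level rose. DESeq2 and limma-voom also called 0, although only 27 members had an adjusted p in DESeq2. At an unadjusted p under 0.05 there were 9 members, 8 lower (20.0%) and 1 higher, where 3.02% of all tested genes were lower and 4.64% higher at that p. Small differences ran mostly downward: 35 members were lower and 5 higher, with a median log2 difference of −0.05, while 49.2% of all tested genes were lower and their median was 0.00. The triol-treated libraries lay wholly below the irradiated ones for 11 members (27.5%), as did 5.88% of tested genes. The irradiated libraries also enter the comparison with control cells, with opposite sign, so these differences are not independent of the changes above. Nolc1 had a log2 difference of −0.09 (95% interval −0.15 to −0.03, edgeR adjusted p = 0.37), the smallest p of the list. For Ncl the value was −0.05 (−0.11 to 0.01), for Npm1 −0.06 (−0.12 to −0.0033), for Polr1a −0.09 (−0.16 to −0.02), for Ubtf −0.08 (−0.15 to −0.0042), for Fbl −0.10 (−0.19 to −0.005) and for Dkc1 −0.06 (−0.14 to 0.02), with edgeR adjusted p between 0.55 and 0.78. Myc was the one member whose triol-treated libraries all lay above the irradiated ones, but only just. The nearest were triol replicate 2 with 5.008 CPM and irradiated replicate 2 with 4.997 CPM. The log2 difference of Myc was 0.38 (95% interval 0.05 to 0.72, edgeR unadjusted p = 0.026, adjusted p = 0.58). The triol-treated libraries lay wholly higher for 7.35% of all tested genes. Over the alternatives that gave Myc an adjusted p, which DESeq2 did not, its value ran from 0.25 (without irradiated replicate 3) to 0.49 and none called it.

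**Figure D4:**
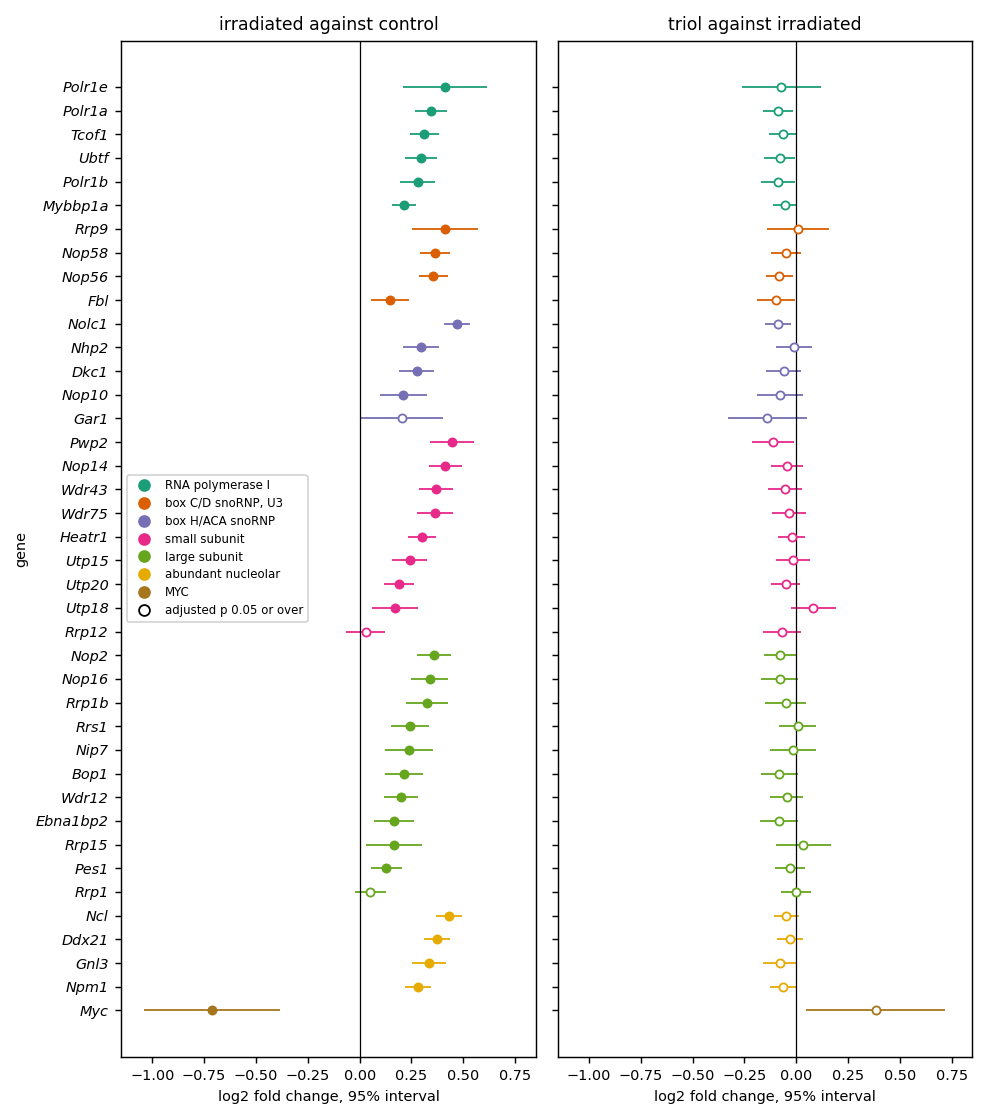
Log2 fold change with its 95% interval for each member, by role, in irradiated against control cells (left panel) and in triol-treated against irradiated cells (right panel). Filled points passed the adjusted p threshold of 0.05 and open points did not: 37 points are filled on the left and 0 on the right, where 35 of 40 lie below 0.

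Triol-treated irradiated cells differed from control cells in 34 of the 40 members, all higher, where 43.3% of all tested genes were called and 21.5% rose. Against a fold of 1.2, 4 members passed upward (Nolc1, Nop14, Ncl and Ddx21), where 6.07% of tested genes did. The groups lay wholly apart with the triol-treated one higher for 34 members and lower for 1, Rrp12, against 25.5% and 25.6% of tested genes. Bop1 was called here though its groups overlapped, and the groups of Rrp1 lay apart though it was not called. This comparison shares its control libraries with that of irradiated against control cells, so the values are not a second measurement of the radiation effect. The median log2 difference was 0.25, against 0.00 over all tested genes. The 6 largest were those of Rrp9 (0.42), Ncl (0.38), Nolc1 (0.38), Nop14 (0.37), Ddx21 (0.34) and Polr1e (0.34). Their SE were between 0.03 and 0.10 and their edgeR adjusted p at most 0.0043. The 6 members that did not pass were Fbl (log2 0.05, 95% interval −0.04 to 0.14), Gar1 (0.07, −0.13 to 0.26), Rrp12 (−0.04, −0.13 to 0.05), Ebna1bp2 (0.08, −0.01 to 0.18), Rrp1 (0.05, −0.02 to 0.12) and Myc (−0.33, −0.63 to −0.03). For Myc the edgeR adjusted p was 0.073, 4 of 17 alternatives called it lower, and without control replicate 2 the value was −0.14 (adjusted p = 0.56). The calls for Nop10 (edgeR adjusted p = 0.047), Pes1 (0.027), Bop1 (0.014) and Rrp15 (0.013) did not hold throughout, with adjusted p up to 0.22, 0.17, 0.11 and 0.11. Nop10 was called by only 4 of 17 alternatives, and lost with DESeq2, without the filter, with the 2 groups only, with the replicate block and in 8 of 9 runs without 1 library. Pes1 was lost without the filter and in 5 such runs (without control replicate 1 or 2 or any 1 triol library), Bop1 in 4 (without control replicate 1 or 3, or triol replicate 1 or 3) and Rrp15 in 2 (without control or triol replicate 2), besides the test against a fold of 1.2.

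Most other listed genes of the same pathway moved the same way. They were read in the same libraries and listed with earlier results known, so they are not a separate measurement. Of 121 further tested genes for polymerase I and for the 2 subunits, 81 rose (66.9%) and 0 fell in irradiated against control cells. Of all tested genes 22.1% rose and 22.2% fell. At an unadjusted p under 0.05 there were 88 of the 121 (86 higher, 2 lower), and 50.6% of all tested genes. The median log2 change of the 121 was 0.19. Among polymerase I genes 8 of 15 rose, led by the subunit gene Cd3eap (0.56, SE 0.08), the subunit gene Polr2l that the polymerases share (0.49) and Rrn3 (0.41), whose product TIF-IA brings the polymerase to its promoter. Among small subunit genes 38 of 53 rose, led by Tsr2 (0.51), Tsr1 (0.47) and Utp4 (0.47, SE 0.04). Among large subunit genes 35 of 53 rose, led by the ATPase gene Spata5 (0.59, SE 0.07), Wdr74 (0.50) and the helicase gene Ddx24 (0.43). In triol-treated against irradiated cells 0 of the 121 were called by edgeR, with 13 at an unadjusted p under 0.05, all lower (10.7%, against 3.02% of all tested genes). In triol-treated against control cells 78 rose (64.5%, against 21.5% of all tested genes) and 1, Gnl3l (−0.11), fell.

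Neighbouring machinery moved less evenly. In irradiated against control cells 5 of 10 genes for snoRNP assembly rose, with Tgs1 (0.26), Znhit6 (0.24) and Nufip1 (0.20) first. Nufip1 is also counted among the small subunit genes above, so the lists are not fully separate. Of 14 genes of the nuclear RNA exosome and its helpers 7 rose, led by Exosc2 (0.38), the nuclease gene Dis3 (0.36) and Exosc5 (0.21). For RNA polymerase III and its factors, which make transfer RNA and the smallest ribosomal RNA, 5 of 23 rose and 1 fell, a share of 21.7% near the 22.1% of all tested genes. Polr3d (0.47), Gtf3c5 (0.32) and Bdp1 (0.25) were the largest. In the MYC network 2 of 16 rose and 6 fell, where 22.1% of all tested genes rose and 22.2% fell. The largest changes there were in Mlx (−0.26), Max (0.24), which encodes the obligate partner of MYC, and Mxd4 (−0.21), which encodes a competitor for MAX. Known MYC targets outside the nucleolus rose in 16 and fell in 4 of 26, with a median of 0.16. The transferrin receptor gene Tfrc had 649, 612 and 609.7 CPM in triol-treated, 641, 606 and 609.7 CPM in irradiated and 439, 430.3 and 455 CPM in control libraries (log2 0.49, SE 0.03, irradiated against control). Ppat and Shmt1, of purine and one-carbon metabolism, rose by 0.41 and 0.40, and Sms, Cdk4, Shmt2 and Mthfd2 fell by 0.13 to 0.21. In triol-treated against irradiated cells edgeR called 0 genes of these 5 lists, with 1, 0, 1, 4 and 6 at an unadjusted p under 0.05, in the order given. These were all lower but for 2 of the 4 in the MYC network, and 7.66% of all tested genes reached that p, against 4 of 16 in the MYC network and 6 of 26 MYC targets. In triol-treated against control cells 2, 6, 5, 2 and 14 rose, and 0, 0, 3, 4 and 4 fell. Of all tested genes 21.5% rose and 21.7% fell in that comparison.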

How the data were processed

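The data were RNA-seq of 9 BV2 libraries in 3 groups. The authors deposited whole-number counts of reads per gene, not normalised. Per the submitters' processing notes they used fastp 0.18.0, FastQC, STAR 2.7.1a and featureCounts of Subread 1.6.3 on GRCm38. For strand setting, annotation release and shared reads, nothing is stated in the labels or notes. In GENCODE M21 all 21951 identifiers were found. Depth was 13879062 to 18944051 counts per library.

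Groups and replicate numbers came from the titles. The filterByExpr step left 11295 genes. The test was the two-sided quasi-likelihood test (edgeR 4.0.16, run under R 4.3.3) after TMM scaling, in 1 fit over all 9 libraries (6 residual degrees of freedom), with Benjamini-Hochberg adjustment over all tested genes. The method was tested on simulated data. Replicates differed from each other beyond counting noise (chi-square per degree of freedom 2.00 to 3.01), so none was merged. Members and lists were chosen with earlier results of these data known. Full values are given for Myc, Npm1, Ncl, Fbl, Dkc1, Polr1a, Ubtf, the largest called rise and fall in each role group, and members that did not pass. From other lists, up to 3 called genes with the largest change in irradiated against control cells are named, and Sms, Cdk4, Shmt2, Mthfd2 and Gnl3l were named after their values were seen. Alternatives were DESeq2 1.42.0, limma-voom (limma 3.58.1), upper quartile scaling, no filter, 2 groups only, a replicate block, a test against a fold of 1.2 and each library left out. Scaling on total counts was added after seeing the data.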

Additional observations from a re-analysis of the deposited data

How the results depend on the processing

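Under 17 alternatives, 16 planned and 1 chosen after seeing the data, the number of members called in irradiated against control cells was 37 in the reported fit and 12 in the test against a fold of 1.2, and 34 to 37 without single libraries. For triol-treated against control cells it was 34, 4 against that fold, and 31 to 34 without single libraries. It was 0 throughout for triol-treated against irradiated cells. The counts over all genes against that fold were 1098, 3 and 1040 for irradiated against control, triol-treated against irradiated and triol-treated against control cells. For all genes in triol-treated against irradiated cells, 12 became 19 with DESeq2, 36 without a filter, 22 with the 2 groups only, 22 with the replicate block and 6 to 19 without single libraries. Upper quartile scaling and total counts moved the median of all genes by under 0.05 in irradiated against control cells. They kept the direction of every member there and gave 38 called members (37 higher). Over all genes, 2498 higher and 2505 lower calls there became 2919 and 2116 with upper quartile scaling and 3034 and 2043 with total counts.

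Values of members described in full that changed sign were all near 0 and not called: Rrp12 in irradiated against control cells (−0.011 to 0.0474 without single libraries, lowest without irradiated replicate 3), Gar1 in triol-treated against control cells (−0.0311 to 0.129, lowest without control replicate 2), and, in triol-treated against irradiated cells, Rrp9 (−0.0018 with upper quartile scaling, −0.0823 to 0.0676 without single libraries) and Rrp1 (0.00016 with limma-voom, −0.0207 to 0.0229 without single libraries). In that comparison 5 other members, Nhp2, Wdr75, Utp15, Nip7 and Rrs1, also crossed 0, with values from −0.0696 to 0.0278 and no call. The cause was not tested. With the replicate block 36 members were called in irradiated against control and 33 in triol-treated against control cells. Deviations of same-numbered libraries from different groups correlated at −0.055 to 0.059, and those of differently numbered ones at −0.088 to 0.065. No pairing by number was seen in the values, which cannot show whether libraries were prepared together. Depth limits Myc, Polr1e and Gar1 most.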

Other observations

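Several members are known hosts of small nucleolar RNAs, which are cut from introns of their transcripts. In GENCODE M21, 6 of the 40 members (15.0%) contain an annotated small nucleolar RNA gene on their own strand, against 1.71% of the other 11255 tested genes. These were Nop58, Ncl, Nop56, Dkc1, Wdr43 and Gnl3, with 1 to 5 each. Their median log2 change in irradiated against control cells was 0.36, against 0.26 for the other 34 members. The values given are those of the host genes, and the small nucleolar RNAs themselves were not examined. Up to 8.00% of a host's exonic bases (Nop56) overlap other annotated genes on the same strand. How shared reads were counted is not stated.

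Genes that link the nucleolus to p53 moved in both directions. Of 10 tested genes 5 rose and 1 fell in irradiated against control cells, where 22.1% of all tested genes rose and 22.2% fell. Mdm4, which encodes an inhibitor of p53, had 82.9 ± 4.24 CPM in triol-treated, 83.9 ± 7.74 CPM in irradiated and 124 ± 8.56 CPM in control cells (SD, n = 3 each), a log2 change of −0.57 (SE 0.06, edgeR adjusted p = 2.9e-09) in irradiated against control cells. Cdkn2a, the gene of p19ARF, which binds nucleophosmin in the nucleolus, had 70.9 ± 0.0947 CPM in triol-treated, 71.8 ± 2.63 CPM in irradiated and 56.8 ± 5.55 CPM in control cells (log2 0.34, SE 0.06, edgeR adjusted p = 2.6e-06). Counts per gene do not separate the transcripts of Cdkn2a, so the rise cannot be assigned to that of p19ARF. In triol-treated against irradiated cells edgeR called 0 of the 10, with 1 at an unadjusted p under 0.05, which 7.66% of all tested genes reached.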
